A study of Mus musculus with 20 samples.

Results

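The genotype by diet interaction asks whether a high-fat diet (HFD) changed liver RNA differently in mice labelled LXRα-/- than in wild-type (WT) mice. For each gene it is the diet effect in livers labelled LXRα-/- (HFD over chow, as a log2 fold change) minus the diet effect in WT livers, so that a positive value means a more positive diet effect in livers labelled LXRα-/-. All 20 libraries of the series enter it, and 18905 of 55385 genes had enough counts to be tested. The groups were mice labelled LXRα-/- on HFD, mice labelled LXRα-/- on chow, WT mice on HFD and WT mice on chow, all at week 24 and with 5 liver libraries each. The titles call the mutant LXRα-/-, while the genotype field calls the same mice an LXR knockdown, and the extraction text speaks of an adipose type although the tissue field says liver. The sources used here do not give strain, sex, age, the mouse behind each library or any preparation batch, so p-values reflect only how far these libraries spread.

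LXRα, encoded by Nr1h3, is a nuclear receptor that binds oxysterols and works on DNA as a pair with a retinoid X receptor (RXR). In liver it is known for switching on cholesterol efflux pumps, the lipogenic factor SREBP-1c and fatty acid desaturation, and in mouse also Cyp7a1, whose enzyme limits the rate of bile acid production. Oxysterols, its ligands, are made from cholesterol, and the study crossed genotype with diet.

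Totals per library ran between 75549139 and 108889938 counts, and 10 counts or more were reached by 16546 to 18254 genes. Hepatocyte markers were abundant in every library, with Alb at 21610 to 84580 CPM (counts per 1e6 after TMM scaling), while Adipoq, which fat cells secrete, had 0 to 9.35 CPM. Nr1h3 itself did not follow the genotype label. It had 27.2 to 194 CPM in the libraries labelled LXRα-/- HFD and 23.4 to 194 CPM in those labelled LXRα-/- Chow, against 42.7 to 64.3 CPM in WT HFD and 92.8 to 135 CPM in WT Chow libraries. Replicate 2 labelled LXRα-/- HFD and replicate 4 labelled LXRα-/- Chow had the lowest Nr1h3 of their groups. Counts per gene do not separate exons, so RNA that lacks a deleted part would still be counted, and every direction below rests on the labels. Without replicate 2 labelled LXRα-/- HFD the interaction was called for 3164 genes, and without replicate 4 labelled LXRα-/- Chow for 3727, against 3661 with all 20.

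The diet effects of the genotypes differed for 3661 of the 18905 genes tested (19.4%; edgeR quasi-likelihood test, adjusted p under 0.05). Of these, 1936 genes (10.2% of those tested) had a positive interaction and 1725 (9.12%) a negative one, and 6138 genes had an unadjusted p under 0.05. The split between directions moved with the settings: positive values made up 52.9% of the calls here, 49.8% of 3672 with median-of-ratios factors and 65.1% of 3535 with library totals alone. They made up 74.6% of 3810 with limma on log2(FPKM + 1), which changes the unit and the test as well. With library totals alone the median interaction of all genes was 0.13, against -0.03 here. The direction of the WT diet effect went with nearly all of them. For 1770 of the genes with a positive interaction, the WT diet effect was a called fall and the diet effect in livers labelled LXRα-/- was not called. For 1618 of the genes with a negative interaction, WT livers showed a called rise and livers labelled LXRα-/- no call. Neither diet effect was called for 163 genes with a positive and 107 with a negative interaction. That leaves Papola and Map3k13, called as rises in livers labelled LXRα-/- alone, and Poc1b, called as a rise in livers labelled LXRα-/- and as a fall in WT livers.

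Among the 3661 genes, the median size of the diet effect was 0.28 log2 units in livers labelled LXRα-/- and 1.24 in WT livers. Over all genes tested the medians were 0.27 and 0.64. The diet effect was called for 3 genes (0.0159%) in livers labelled LXRα-/-, with 1278 at an unadjusted p under 0.05, and for 5547 genes (29.3%) in WT livers, 2706 of them rises (14.3%) and 2841 falls (15%). Across genes the 2 diet effects had a Pearson correlation of -0.09 and a Spearman correlation of -0.16, a description over genes, which are not independent. The interaction had a median SE of 0.51 log2 units, against 0.36 for either diet effect alone, so it resolves less. Its 95% interval lay within 1 log2 unit of 0 for 2790 genes (14.76%). For 12473 genes that were not called the interval reached 1 log2 unit or beyond, and a 2-fold difference between the diet effects was not excluded by these libraries.

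**Figure D1:**
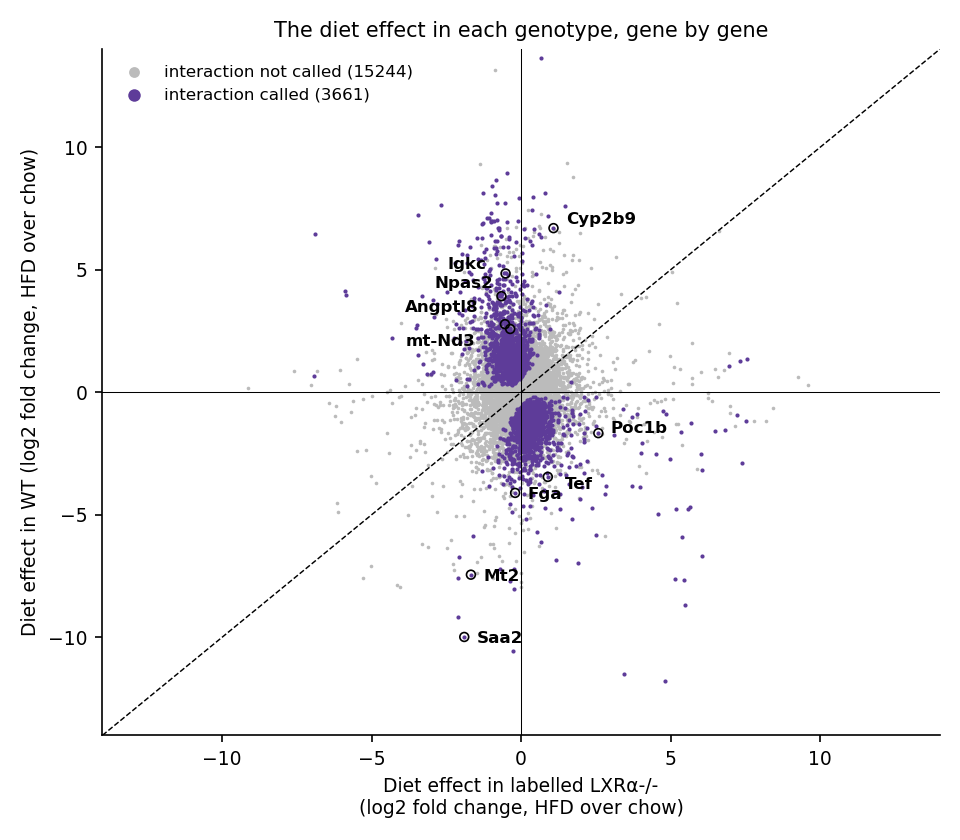
Each point is 1 of the 18905 genes tested, with the diet effect in livers labelled LXRα-/- across and the diet effect in WT livers up the page (both log2 fold change, HFD over chow), and the dashed line marks equal effects. The 3661 genes called for the interaction (purple) spread along the WT axis, where the median size of the diet effect was 1.24, and stay near 0 on the other axis, where it was 0.28.

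A single group stood apart for most of these genes. For 3367 of the 3661 genes (91.97%) the WT Chow mean lay farthest from the other group means, against 28 genes for LXRα-/- HFD, 145 for LXRα-/- Chow and 121 for WT HFD. The share was 57.02% over all genes tested. The 5 WT Chow libraries lay outside the range of the other 15 for 2105 of the 3661 genes (57.5%), against 14.3% of all genes tested. The genotypes also differed far more often on chow, for 8197 genes (43.4%), than on HFD, for 86 genes (0.455%). These comparisons share libraries with the interaction and are given side by side, not as separate evidence.

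WT Chow libraries differed from the others in make-up as well as in single genes. Mitochondrial genes took 14.1% to 20.4% of the counts in the libraries labelled LXRα-/- HFD and 18.2% to 29.6% in those labelled LXRα-/- Chow. They took 9.77% to 19.3% in WT HFD and 3.89% to 5.67% in WT Chow libraries. Pseudogenes had median shares of 6.84%, 7.97%, 6.88% and 2.45% in the same 4 groups. The share of mitochondrial counts thus separates WT Chow from the other groups without overlap, as most of the genes below do. The sources used here do not say whether WT Chow was prepared, collected or sequenced apart from the rest, so such a difference and the diet effect in WT livers cannot be told apart. With the mitochondrial share added to the model as a covariate, 76 genes were called. The covariate itself separates WT Chow from the rest, so a loss of calls follows in part from its overlap with the groups. This holds here and for the lists below, and whether the share accounts for the interaction was not tested. Of the 183 genes called by the naming rule 18 kept their call. Of the 25 of these whose values are printed per library below, Igkc, mt-Nd3, Ssrp1 and Mir8114 kept it. The counts of mt-Nd3 are part of the share, so its result with this covariate is not a separate check. The values of genes that lost their call moved unequally. With the covariate the interaction of Saa2 was 8.73 (adjusted p = 0.142), against 8.08 without it, that of Mt2 6.46 (adjusted p = 0.0825), against 5.77, and that of Gdf15 -1.16 (adjusted p = 0.675), against -3.63.

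**Figure D2:**
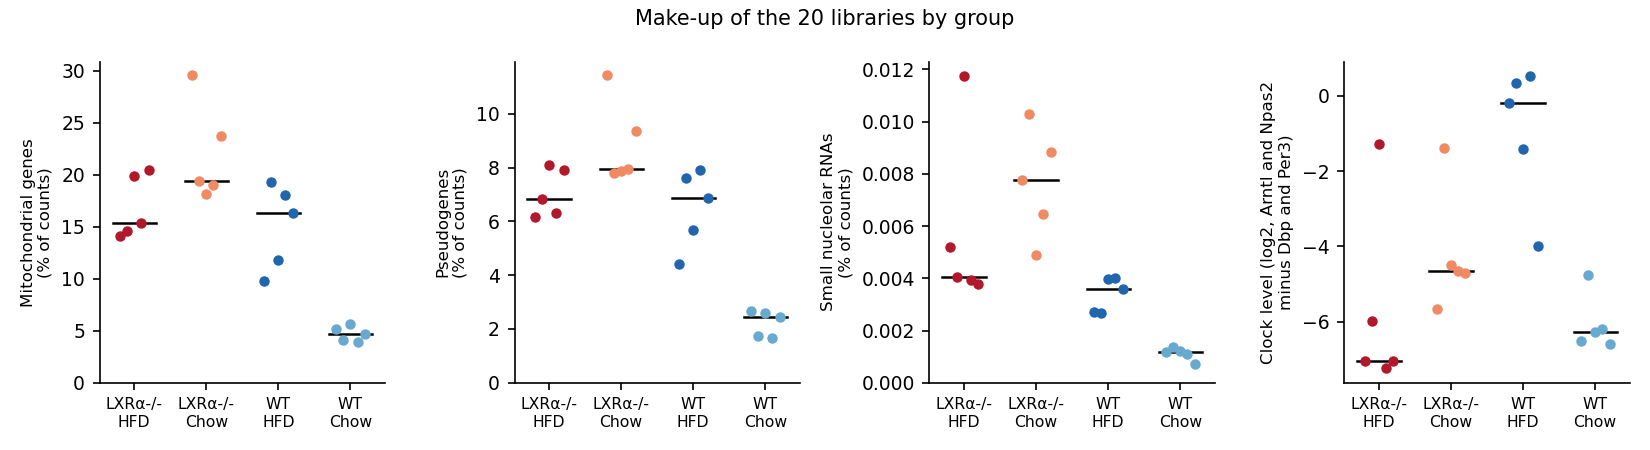
The 4 panels show, for each library (points) and group median (lines), the share of counts in mitochondrial genes, in pseudogenes and in small nucleolar RNAs (all in percent), and the clock level (mean log2 level of Arntl and Npas2 minus that of Dbp and Per3). WT Chow libraries have the lowest mitochondrial shares, 3.89% to 5.67%, and the clock level is highest in WT HFD, at a mean of -0.94 ± 1.86 (SD, n = 5).

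The mitochondrially encoded genes make subunits of the respiratory chain and ATP synthase from the organelle's own DNA. All 13 had a negative interaction (background, the share of all genes tested, 9.12%), with a median of -2.14 against -0.03 over all genes tested. The median diet effect of the 13 was -0.46 in livers labelled LXRα-/- and 1.53 in WT livers. mt-Nd3 encodes a subunit of complex I. mt-Nd3 had 1880, 2249, 2326, 1847 and 2279 CPM in the libraries labelled LXRα-/- HFD and 3512, 2391, 1800, 2394 and 3522 CPM in those labelled LXRα-/- Chow. mt-Nd3 had 1087, 2315, 1445, 2185 and 1687 CPM in WT HFD libraries and 305, 234, 322, 335 and 258 CPM in WT Chow libraries. All WT Chow values were below those of the other groups, which overlapped. Its interaction was -2.95 ± 0.32 (log2, SE; adjusted p = 1.23e-05), with a diet effect of -0.36 in livers labelled LXRα-/- and 2.58 in WT livers. Nuclear genes of the same complexes did not follow. Of 23 tested nuclear respiratory chain and ATP synthase genes, 6 had a positive interaction (background 10.2%), led by Atp5b, the beta subunit of ATP synthase, at 2.68, and Cox6c had a negative one at -0.85.

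The receptors and their known targets were the first genes to examine, and 8 of the 25 showed the interaction (background 19.4% in either direction). Of 5 tested receptors, Rxra alone was called. It encodes the main RXR of hepatocytes. Rxra had 233, 297, 189, 258 and 250.1 CPM in the libraries labelled LXRα-/- HFD and 148, 184, 174, 235 and 245 CPM in those labelled LXRα-/- Chow. Rxra had 291, 249, 277, 254 and 288 CPM in WT HFD libraries and 507, 504, 464, 576 and 584 CPM in WT Chow libraries. The WT Chow values were above the rest, and LXRα-/- HFD overlapped both remaining groups. The interaction was 1.27 ± 0.22 (adjusted p = 0.000582), with a diet effect of 0.31 in livers labelled LXRα-/- and -0.95 in WT livers. Nr1h3 had an interaction of 1.18 with a 95% interval of -0.10 to 2.46 (adjusted p = 0.191), and Nr1h2, which encodes LXRβ, one of -0.39 (-1.21 to 0.42). Without LXRα-/- HFD replicate 2, which had the lowest Nr1h3 of its group, the Nr1h3 interaction was called.

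None of the 5 sterol efflux targets, Abca1, Abcg1, Abcg5, Abcg8 and Mylip, was called by edgeR, and 0 of them had an unadjusted p under 0.05. DESeq2 and limma on log2(FPKM + 1) also called 0, and the median interaction was 0.07. Abca1, which loads cholesterol onto apolipoprotein A-I, had an interaction of 0.07 (95% interval -0.68 to 0.83), and Abcg5, which pumps sterol into bile with Abcg8, -0.33 (-1.19 to 0.52). Srebf1, which encodes SREBP-1c, had -0.65 (-1.66 to 0.36), Fasn, the fatty acid synthase, -0.56 (-2.02 to 0.91), and Acaca, which makes malonyl-CoA, 0.10 (-0.61 to 0.80). The intervals of Abcg5, Srebf1 and Fasn reach below -1, while those of Abca1 and Acaca lie within 1 log2 unit of 0. For Scd1, the stearoyl-CoA desaturase, the interval ran from -1.56 to 1.55.

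Of 20 tested LXR targets, 5 had a called negative interaction (among them Lpl, Apoc1, Pltp and Mlxipl) and 2 a positive one (Cyp7a1 and Smpdl3a; background 9.12% negative and 10.2% positive), and the median of the 20 was -0.02. With the mitochondrial share as a covariate none of them was called, and 4 had an unadjusted p under 0.05. Lpl encodes lipoprotein lipase, which frees fatty acids from triglyceride-rich particles. Lpl had 9.13, 6.15, 12.3, 7.27 and 6.95 CPM in the libraries labelled LXRα-/- HFD and 12.8, 15.2, 7.69, 9.55 and 16 CPM in those labelled LXRα-/- Chow. Lpl had 16.9, 15.4, 12.3, 14.7 and 17.1 CPM in WT HFD libraries and 11.2, 6.21, 6.21, 4.8 and 4.28 CPM in WT Chow libraries. Every WT HFD library lay above every WT Chow library, while WT Chow overlapped both groups labelled LXRα-/-. Its interaction was -1.77 ± 0.37 (adjusted p = 0.00241), with a diet effect of -0.55 in livers labelled LXRα-/- and 1.23 in WT livers. Apoc1, an apolipoprotein of the same particles, had an interaction of -1.61. Smpdl3a, a phosphodiesterase, had 1.22. Mlxipl, which encodes the glucose-sensing factor ChREBP, had -1.14 (adjusted p = 0.0461), a call that ended when any of 14 of the 20 libraries was left out (range -1.33 to -0.93).

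Of the 7 called LXR targets, Pltp and Cyp7a1 were those in which a group other than WT Chow lay farthest from the rest. Pltp moves phospholipid between lipoproteins. Pltp had 41.9, 32.4, 45.1, 59.3 and 65.6 CPM in the libraries labelled LXRα-/- HFD and 117, 43, 144, 48.6 and 23.7 CPM in those labelled LXRα-/- Chow. Pltp had 112, 349, 139, 276 and 562 CPM in WT HFD libraries and 94.2, 19.9, 38.4, 83.8 and 133 CPM in WT Chow libraries. WT HFD libraries were highest but overlapped both chow groups, and the libraries labelled LXRα-/- HFD lay below every WT HFD library. The interaction of Pltp was -2.58 ± 0.74 (adjusted p = 0.0185), made of -0.62 in livers labelled LXRα-/- and 1.96 in WT livers. Cyp7a1 starts the conversion of cholesterol to bile acids. Cyp7a1 had 12.4, 23.2, 0.955, 31.1 and 12.1 CPM in the libraries labelled LXRα-/- HFD and 3.77, 2.05, 3.69, 8.85 and 5.76 CPM in those labelled LXRα-/- Chow. Cyp7a1 had 11.1, 5.64, 21.9, 12.7 and 21.1 CPM in WT HFD libraries and 21.3, 11.2, 45.5, 51.6 and 10.5 CPM in WT Chow libraries. The libraries labelled LXRα-/- Chow were the lowest group, and replicate 3 labelled LXRα-/- HFD was below all of them. The interaction of Cyp7a1 was 2.68 ± 0.89 (adjusted p = 0.0405), with neither diet effect called (1.73 in livers labelled LXRα-/-, -0.95 in WT livers). Leaving out any of 11 of the 20 libraries ended this call (range 2.29 to 3.0), and with the clock level as a covariate the value was -1.15.

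**Figure D3:**
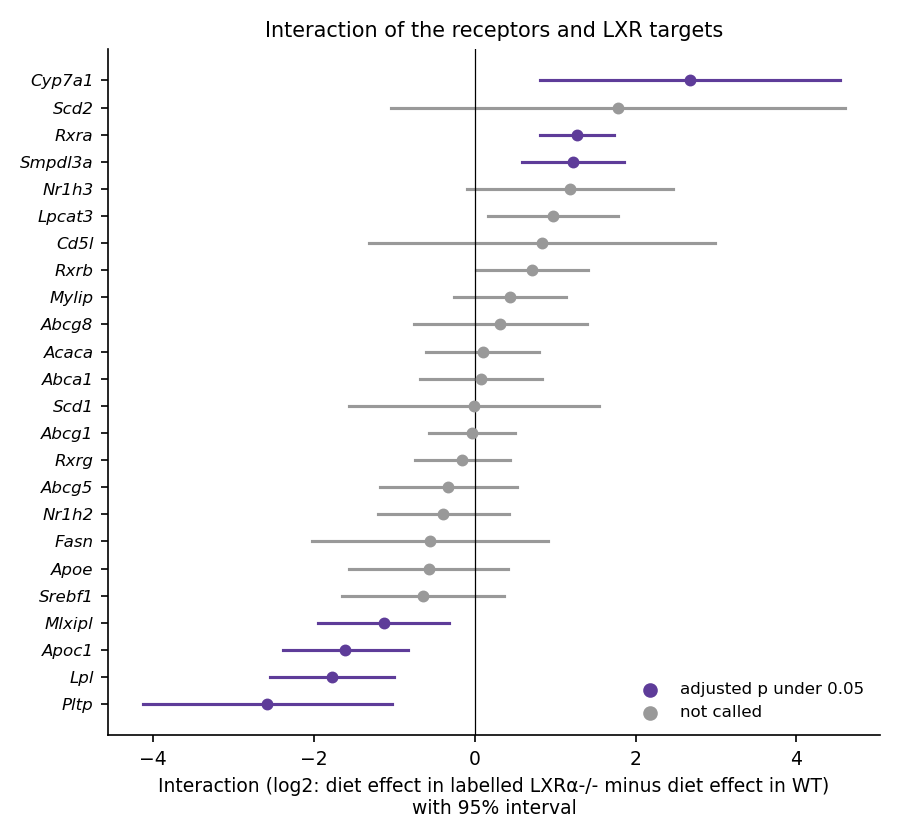
Points and bars give the interaction (log2) and its 95% interval for 24 receptor and LXR target genes, ordered by value, with called genes in purple. The 7 called genes among them lie on both sides of 0, between -2.58 for Pltp and 2.68 for Cyp7a1, and the sterol efflux genes lie around 0.

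Cholesterol synthesis, which the SREBP-2 factor switches on when sterol is short, had 7 positive interactions and no negative one among 26 tested genes (background 10.2%). All 7 were enzymes, and the median interaction of the list was 0.94, with a median diet effect of 0.62 in livers labelled LXRα-/- and -0.33 in WT livers. Sqle encodes the squalene epoxidase, an early enzyme of the sterol branch. Sqle had 35.3, 39.5, 7.37, 21.6 and 17.8 CPM in the libraries labelled LXRα-/- HFD and 14.2, 8.75, 5.54, 11.9 and 23.6 CPM in those labelled LXRα-/- Chow. Sqle had 34.6, 14.4, 31.2, 25.5 and 23.5 CPM in WT HFD libraries and 37.7, 189, 81.9, 40.4 and 44.3 CPM in WT Chow libraries. WT Chow libraries were the highest group, and replicate 2 labelled LXRα-/- HFD alone reached their range. The interaction of Sqle was 2.53 ± 0.68 (adjusted p = 0.0133), with diet effects of 0.93 in livers labelled LXRα-/- and -1.61 in WT livers. It stayed called without any 1 of the 20 libraries (range 1.91 to 2.87), and adding the clock level to the model ended the call. Lss, the lanosterol synthase, had an interaction of 1.40.

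Hsd17b7 and Msmo1 showed another pattern, in which the libraries labelled LXRα-/- Chow were the low group. Hsd17b7 encodes a sterol ketoreductase of the same pathway. Hsd17b7 had 22.6, 24.9, 6.62, 22.6 and 24.1 CPM in the libraries labelled LXRα-/- HFD and 7.88, 8.21, 6.69, 11.3 and 8.37 CPM in those labelled LXRα-/- Chow. Hsd17b7 had 21.6, 12.8, 17.1, 14.7 and 19.6 CPM in WT HFD libraries and 33.8, 61.2, 27.6, 14.9 and 18.9 CPM in WT Chow libraries. Of the libraries labelled LXRα-/- HFD, 4 lay above every library labelled LXRα-/- Chow, and replicate 3 lay just below them. Its interaction was 2.11 ± 0.49 (adjusted p = 0.00496), from 1.24 in livers labelled LXRα-/- and -0.86 in WT livers, neither of them called. Msmo1, a sterol methyl oxidase, had 2.11, from 1.48 in livers labelled LXRα-/- and -0.63 in WT livers. Nsdhl, which acts beside it on the same sterols, had 1.09.

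Fatty acid synthesis gave 3 positive interactions and 1 negative among 17 tested genes, near the background of 19.4% in either direction, with a median of 0.81. Me1, the malic enzyme that supplies NADPH to the pathway, had 3.39 (adjusted p = 0.00181). Fatty acid oxidation had 9 positive interactions and no negative one among 23 genes (background 10.2%), with a median of 0.54. Hadhb encodes the beta subunit of the mitochondrial trifunctional protein. Hadhb had 8.16, 12.1, 6.69, 7.83 and 9.32 CPM in the libraries labelled LXRα-/- HFD and 9.02, 5.91, 9.36, 6.1 and 7.26 CPM in those labelled LXRα-/- Chow. Hadhb had 23.8, 7.76, 12.8, 9.05 and 10.3 CPM in WT HFD libraries and 105, 82.3, 78, 66.7 and 82.1 CPM in WT Chow libraries. All 5 WT Chow values were above the others. The interaction was 2.93 ± 0.37 (adjusted p = 5.31e-05), with 0.23 in livers labelled LXRα-/- and -2.70 in WT livers.

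Ppara, the nuclear receptor that switches on fatty acid oxidation in fasting, moved the same way. Ppara had 12.4, 8.92, 5.38, 9.34 and 11.3 CPM in the libraries labelled LXRα-/- HFD and 6.07, 6.14, 8.32, 5.07 and 3.7 CPM in those labelled LXRα-/- Chow. Ppara had 6.6, 6.38, 6.79, 6.47 and 10.3 CPM in WT HFD libraries and 42.2, 21.1, 20.3, 23.3 and 31.2 CPM in WT Chow libraries. No other library reached the lowest WT Chow value. The interaction was 2.61 ± 0.37 (adjusted p = 0.000117), with 0.69 in livers labelled LXRα-/- and -1.92 in WT livers. Cpt1a, which admits fatty acids to mitochondria, had 2.41. Lipid droplet and triglyceride genes had 9 positive interactions among 22 (background 10.2%), with a median of 0.63. Among them Plin2, the main droplet coat of hepatocytes, had 1.65, Pnpla2, the adipose triglyceride lipase, 1.05, and Mgll, which splits monoglycerides, 2.91. The droplet count went down to 4 without WT Chow replicate 4, and to 0 with the mitochondrial share as a covariate, as did that of fatty acid oxidation. In the droplet list the median diet effect was 0.59 in livers labelled LXRα-/- and -0.05 in WT livers.

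Lipoprotein genes divided, with 4 positive and 5 negative interactions among 15 tested (background 10.2% positive and 9.12% negative). Mttp, which loads lipid onto apolipoprotein B, had 1.77 and Apom, carried on HDL, 2.01. The negative ones were Apoa1 at -1.49, Apoa2 at -1.48, Apoc2 at -2.39, Apoc3 at -1.70 and Angptl8, all small secreted proteins. Angptl8, a hormone induced by feeding, was the largest. Angptl8 had 274, 143, 566, 249.9 and 216 CPM in the libraries labelled LXRα-/- HFD and 657, 559, 421, 376 and 88.9 CPM in those labelled LXRα-/- Chow. Angptl8 had 217, 273, 484, 232 and 271 CPM in WT HFD libraries and 7.64, 76.1, 60.8, 53.8 and 16.9 CPM in WT Chow libraries. Every WT Chow library lay below every other library. The interaction was -3.32 ± 0.76 (adjusted p = 0.00483), with -0.54 in livers labelled LXRα-/- and 2.78 in WT livers. Vldlr, a receptor for triglyceride-rich particles, had -4.15 (adjusted p = 0.00116).

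Among 12 liver hormone genes 3 had a negative interaction (background 9.12%) and none a positive one. Gdf15 encodes a stress hormone that reduces appetite. Gdf15 had 10.8, 3, 12.9, 12.3 and 13 CPM in the libraries labelled LXRα-/- HFD and 27.2, 9.22, 5.23, 7.63 and 30.4 CPM in those labelled LXRα-/- Chow. Gdf15 had 11.8, 21.8, 6.84, 8.69 and 26.1 CPM in WT HFD libraries and 1.23, 2.74, 1.29, 2.71 and 1.3 CPM in WT Chow libraries. WT Chow libraries were the lowest, and replicate 2 labelled LXRα-/- HFD stood just above them. The interaction of Gdf15 was -3.63 ± 0.73 (adjusted p = 0.00176), with -0.62 in livers labelled LXRα-/- and 3.02 in WT livers. Igf1, the growth factor that liver releases under growth hormone, had -1.40. Fgf21, a fasting and stress hormone, had -2.82, with 1.28 in livers labelled LXRα-/- and 4.10 in WT livers. Without LXRα-/- Chow replicate 2 the Fgf21 interaction was -2.36 and no longer called.

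Acute phase proteins are made by hepatocytes under interleukin-6 and related signals. This list had 16 positive interactions and no negative one among 24 tested genes (background 10.2%). The count was 15 to 18 when 1 library was left out, 5 with the clock level and 0 with the mitochondrial share as a covariate, where 11 members had an unadjusted p under 0.05. Its median interaction was 2.10, from a median diet effect of -0.60 in livers labelled LXRα-/- and -2.51 in WT livers. The summed level of the list was 15470 to 23350 CPM in the libraries labelled LXRα-/- HFD and 18710 to 41310 CPM in those labelled LXRα-/- Chow. It was 18060 to 23410 CPM in WT HFD and 40180 to 292500 CPM in WT Chow libraries.

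Saa2 and its neighbour Saa1 encode serum amyloid A, a major acute phase protein of mice. Saa2 had 4.95, 6.22, 3.32, 32.2 and 6.14 CPM in the libraries labelled LXRα-/- HFD and 32.6, 5.36, 17.3, 12.8 and 129 CPM in those labelled LXRα-/- Chow. Saa2 had 19.1, 27.5, 6.1, 4.17 and 8.49 CPM in WT HFD libraries and 3612, 34940, 6037, 20720 and 862 CPM in WT Chow libraries. WT Chow libraries exceeded every other library, and they also differed most among themselves. The interaction of Saa2 was 8.08 ± 1.43 (adjusted p = 0.000711), with -1.90 in livers labelled LXRα-/- and -9.99 in WT livers. Saa1 had 7.07 and Saa3, made by many cell types, 6.50. Saa3 ran from 4.28 to 3360 CPM in WT Chow libraries, with a median of 38.1. Its lowest WT Chow library lay within the range of WT HFD, 4.14 to 8.15 CPM. The promoters of Saa1 and Saa2 are shown because both genes are among the 12 largest positive interactions. Both windows are the 250 bases before the start in RefSeq on GRCm38.p6, at chr7:46742981-46743230 on the minus strand for Saa1 and chr7:46751583-46751832 on the plus strand for Saa2. Capitals mark a match, on either strand, to TTGCNNAA, a core read by C/EBP factors.
Saa1: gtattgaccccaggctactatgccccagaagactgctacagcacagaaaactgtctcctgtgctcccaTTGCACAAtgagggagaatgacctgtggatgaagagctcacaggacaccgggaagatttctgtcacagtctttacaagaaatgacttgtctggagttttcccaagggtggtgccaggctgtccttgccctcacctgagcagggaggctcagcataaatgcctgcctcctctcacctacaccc
Saa2: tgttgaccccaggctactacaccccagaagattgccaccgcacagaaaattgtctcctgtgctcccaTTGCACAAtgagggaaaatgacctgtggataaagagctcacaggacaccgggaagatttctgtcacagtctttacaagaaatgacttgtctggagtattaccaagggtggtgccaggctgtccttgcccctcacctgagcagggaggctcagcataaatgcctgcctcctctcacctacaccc
The windows were identical at 238 of 251 aligned columns (94.8%), and the match began 182 and 183 bases before the start. The single windows of Saa3, Saa4 and Lcn2 each held a match too, and so did 9.56% of 32851 promoter windows. The letters were chosen after these promoters were viewed, and a match describes the sequence without showing that a factor binds it. The windows lie before the start and the transcripts were not compared, so the division of reads between Saa1 and Saa2 is uncertain.

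Metallothioneins bind zinc and copper and are induced by metals, glucocorticoids and interleukin-6. Mt2 had 3.24, 2.38, 2.28, 2.06 and 1.71 CPM in the libraries labelled LXRα-/- HFD and 5.03, 2.02, 6.67, 2.08 and 21.6 CPM in those labelled LXRα-/- Chow. Mt2 had 3.31, 3.42, 2.11, 3.38 and 8.46 CPM in WT HFD libraries and 624, 624, 169, 1775 and 408 CPM in WT Chow libraries. WT Chow libraries lay far above all others, and replicate 5 labelled LXRα-/- Chow was the highest of the rest. The interaction of Mt2 was 5.77 ± 0.90 (adjusted p = 0.000271), with -1.68 in livers labelled LXRα-/- and -7.44 in WT livers, and Mt1 had 4.28. Their promoters are shown because the neighbouring genes moved together. The windows lie at chr8:94178839-94179088 for Mt1 and chr8:94172368-94172617 for Mt2, both on the plus strand of GRCm38.p6 in RefSeq. Capitals mark TGCGCNC or TGCACNC on either strand, the core of the metal response element that MTF-1 reads.
Mt1: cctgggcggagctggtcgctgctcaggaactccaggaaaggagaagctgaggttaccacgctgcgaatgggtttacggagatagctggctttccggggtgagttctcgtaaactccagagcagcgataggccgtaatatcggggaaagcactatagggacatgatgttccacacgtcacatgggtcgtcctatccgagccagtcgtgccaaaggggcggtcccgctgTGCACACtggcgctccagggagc
Mt2: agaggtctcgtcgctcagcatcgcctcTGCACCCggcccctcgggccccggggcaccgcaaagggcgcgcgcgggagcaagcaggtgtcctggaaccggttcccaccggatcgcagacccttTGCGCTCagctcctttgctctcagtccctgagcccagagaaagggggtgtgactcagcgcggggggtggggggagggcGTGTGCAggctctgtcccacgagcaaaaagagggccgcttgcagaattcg
Mt1 held 1 match and Mt2 held 3, and 21.4% of all windows held at least 1. The windows were 48.1% identical. The transcripts of Mt1 and Mt2 were not compared, so how well reads divide between them was not tested.

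Fga, Fgb and Fgg encode the chains of fibrinogen, and all had a positive interaction. Fga had 389, 419, 264, 305 and 302 CPM in the libraries labelled LXRα-/- HFD and 367, 216, 424, 389 and 532 CPM in those labelled LXRα-/- Chow. Fga had 1513, 472, 837, 479 and 315 CPM in WT HFD libraries and 9466, 30960, 10450, 6110 and 5260 CPM in WT Chow libraries. The 5 highest libraries were those of WT Chow, with replicate 2 at the top. The interaction of Fga was 3.91 ± 0.65 (adjusted p = 0.000422), and Fgb and Fgg had 2.14 and 2.99. Lcn2, an iron-siderophore binding protein, had 5.48. Of 14 tested recruited macrophage markers, 2 were called positive, near the background of 10.2%, with a median interaction of 0.48. Their summed level was 48.7 to 90.9 CPM in LXRα-/- HFD, 64.0 to 96.2 CPM in LXRα-/- Chow, 35.5 to 77.3 CPM in WT HFD and 160.5 to 548 CPM in WT Chow libraries. Their part in the acute phase result was not tested. A2m, a protease inhibitor with a large interaction (10.29), rested on 1 library, and without WT Chow replicate 2 it was 1.51 and not called. The A2m call ended when any of 7 of the 20 libraries was left out, that one among them.

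**Figure D4:**
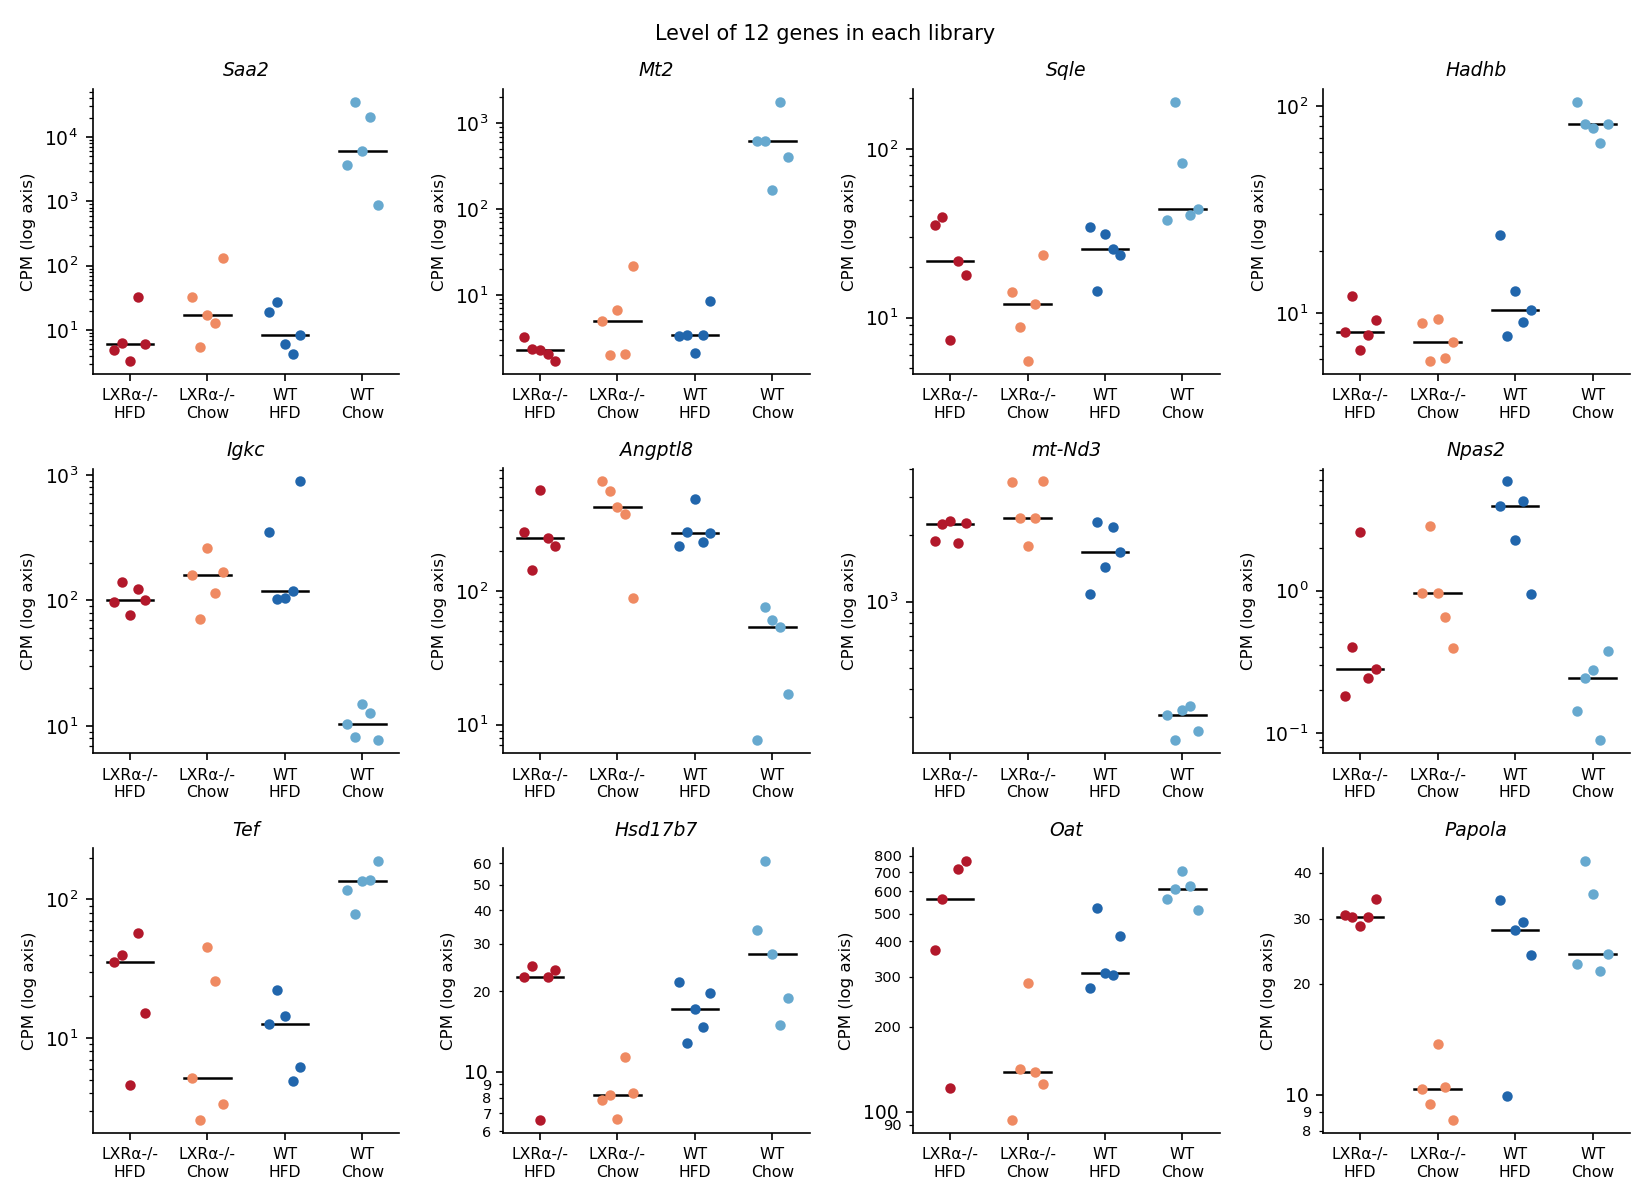
Each panel gives 1 of 12 genes as CPM on a log axis in every library (points), with lines at the group medians. In most panels the WT Chow points lie apart, as for Saa2 at 862 to 34940 CPM, while Npas2 is highest in WT HFD and Hsd17b7, Oat and Papola are lowest in LXRα-/- Chow.

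Bile acid genes gave 7 positive interactions and 1 negative among 23 tested (background 10.2% positive and 9.12% negative), with a median of 0.50. Slc10a1 encodes NTCP, the pump that takes bile acids up from blood. Slc10a1 had 103, 122, 70.7, 100.2 and 118 CPM in the libraries labelled LXRα-/- HFD and 65.8, 74.1, 107, 76.4 and 50.9 CPM in those labelled LXRα-/- Chow. Slc10a1 had 183, 103, 158, 101 and 97.4 CPM in WT HFD libraries and 438, 220.3, 519.8, 433 and 674 CPM in WT Chow libraries. No library of another group reached the lowest WT Chow value. The interaction was 2.29 ± 0.38 (adjusted p = 0.000379), with 0.46 in livers labelled LXRα-/- and -1.83 in WT livers. Cyp7b1, of the alternative synthesis pathway, had 2.43, and Cyp2c70, an enzyme of muricholic acid synthesis, 1.65. Nr0b2, which encodes the repressor SHP, was the negative one at -1.49.

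Genes of drug metabolism divided into 5 positive and 3 negative interactions among 25 (background 10.2% positive and 9.12% negative). Cyp2b9 and Cyp2b10, of one cytochrome P450 subfamily, went opposite ways, at -5.62 and 4.55. Cyp2b10 is known as a target of the drug sensor CAR. Cyp2b9 is also known as a female-biased gene of mouse liver. Cyp2b9 had 61.6, 61.2, 4.99, 141 and 28.7 CPM in the libraries labelled LXRα-/- HFD and 15.9, 3.43, 103, 12.3 and 5.59 CPM in those labelled LXRα-/- Chow. Cyp2b9 had 0.0421, 6.63, 0.58, 11.4 and 21.4 CPM in WT HFD libraries and 0.0879, 0, 0.128, 0.122 and 0.0419 CPM in WT Chow libraries. WT Chow libraries had almost none, WT HFD libraries ranged widely, and every library labelled LXRα-/- lay above every WT Chow library. Cyp2b9 had a SE of 1.70 and an adjusted p of 0.0248, and the call ended without WT HFD replicate 5 (-4.85) or LXRα-/- Chow replicate 3 (-4.04). On the square root of CPM its value turned to 0.59, on another scale. Cyp2c29 had 2.90 and Cyp3a13 2.10 (adjusted p = 2.14e-05), and Por, which passes electrons to these enzymes, 2.19.

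Lists of protein folding and degradation went different ways. Of 23 tested genes of endoplasmic reticulum folding and stress, 9 had a positive interaction and Atf4 a negative one at -0.99, with a list median of 0.95 (background 10.2% positive and 9.12% negative). Of 11 heat shock chaperone genes none was positive and Hsp90aa1, a cytosolic chaperone, was negative at -1.73, with a list median of -0.39. Xbp1 encodes a transcription factor of the unfolded protein response that also serves secretory cells. Xbp1 had 15.3, 22.6, 15.5, 21.2 and 21 CPM in the libraries labelled LXRα-/- HFD and 14.9, 20.1, 21.3, 16.9 and 8.38 CPM in those labelled LXRα-/- Chow. Xbp1 had 46.9, 15.2, 28, 19.5 and 11.3 CPM in WT HFD libraries and 132, 167, 104, 165 and 162 CPM in WT Chow libraries. Again WT Chow was highest without overlap, and WT HFD replicate 1 came nearest. The interaction of Xbp1 was 2.82 ± 0.44 (adjusted p = 0.000269), with 0.23 in livers labelled LXRα-/- and -2.59 in WT livers. Hyou1, a folding chaperone, had 2.93, Pdia6, a disulfide isomerase, 1.99, and Edem1, of degradation from this compartment, 2.32. Lysosomal genes had 9 positive and 1 negative of 19 (background 10.2% positive and 9.12% negative), led by Ctsl, a protease, at 2.85. Proteasome subunits had 4 positive of 14 (background 10.2%). Of 23 cytosolic ribosomal protein genes 3 were positive and 3 negative, near the background of 10.2% and 9.12%.

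Central carbon metabolism showed the same direction. Citrate cycle genes had 10 positive interactions and 2 negative among 16 (background 10.2% positive and 9.12% negative), with a median of 1.02, from 0.27 in livers labelled LXRα-/- and -0.82 in WT livers. Suclg1, a subunit of succinyl-CoA synthetase, had 2.40 while Suclg2, which pairs with it, had -0.96. Mdh1, the cytosolic malate dehydrogenase, had 2.23 and Idh1, the cytosolic isocitrate dehydrogenase, -0.71. With the mitochondrial share as a covariate 0 members of the citrate cycle and of the endoplasmic reticulum lists were called. Among 15 genes of glucose metabolism 4 were positive (background 10.2%), led by Fbp1, the gluconeogenic fructose bisphosphatase, at 2.89. Of 17 urea cycle and amino acid genes 6 were positive (the same background), including Cps1, the entry of the urea cycle, at 1.83. Hepatocyte markers as a list had 3 positive of 25, near the background of 10.2%, with a summed level of 82010 to 102600 CPM in LXRα-/- HFD, 45110 to 123800 CPM in LXRα-/- Chow, 99860 to 136000 CPM in WT HFD and 105600 to 136200 CPM in WT Chow. Fewer cells of a type and less RNA per cell cannot be told apart in bulk samples.

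The circadian clock was the list in which WT HFD, not WT Chow, led most of the calls. The core clock is a loop in which BMAL1 (Arntl) and its partners drive repressors that shut them down within a day, so levels depend on the hour of collection, which the sources used here do not state. Of 19 tested genes 6 had a positive and 3 a negative interaction (background 10.2% positive and 9.12% negative). All 3 negative ones were among the 5 activators, and the positive ones were 4 of 10 repressors and 2 of 4 output genes. WT Chow was the farthest group for 2 of the 9. Npas2 encodes a partner of BMAL1. Npas2 had 0.181, 0.399, 2.57, 0.243 and 0.281 CPM in the libraries labelled LXRα-/- HFD and 0.963, 2.83, 0.957, 0.652 and 0.393 CPM in those labelled LXRα-/- Chow. Npas2 had 3.94, 5.83, 2.26, 4.25 and 0.948 CPM in WT HFD libraries and 0.143, 0.243, 0.277, 0.089 and 0.377 CPM in WT Chow libraries. WT HFD libraries were the highest group, but those at 0.948 and 2.26 CPM lay within the range of both groups labelled LXRα-/-. Npas2 had an interaction of -4.58 ± 1.02 (adjusted p = 0.00383), with -0.66 in livers labelled LXRα-/- and 3.92 in WT livers. Arntl had -2.22, and the repressors Per3, Cry2 and Bhlhe41 had 2.75, 1.17 and 2.56.

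The clock level, the mean log2 CPM of Arntl and Npas2 minus that of Dbp and Per3, was -5.72 ± 2.53 in LXRα-/- HFD, -4.18 ± 1.63 in LXRα-/- Chow, -0.94 ± 1.86 in WT HFD and -6.07 ± 0.75 in WT Chow (SD, n = 5 each). Replicate 3 labelled LXRα-/- HFD stood at -1.28 while the rest of its group lay between -7.24 and -5.98. When the clock level was a covariate, the interaction was called for 733 genes, 0 of them in the clock list. The clock level is itself built from clock genes, so this loss follows in part from its construction and does not test the list. Of the 25 called genes of the naming rule that are shown per library, 14 kept their call. Tef, an output of the clock that binds D-box elements, is shown in full because it has 2 annotated starts. Tef had 35.5, 39.7, 4.62, 57.3 and 15.2 CPM in the libraries labelled LXRα-/- HFD and 5.13, 2.57, 45, 25.9 and 3.37 CPM in those labelled LXRα-/- Chow. Tef had 12.7, 22.1, 14.4, 4.88 and 6.21 CPM in WT HFD libraries and 118, 78.3, 136, 139 and 189 CPM in WT Chow libraries. Tef was highest in WT Chow without overlap, and replicate 3 labelled LXRα-/- HFD was the lowest of its group. The interaction of Tef was 4.35 ± 1.02 (adjusted p = 0.00531), and with the clock level as a covariate it was 1.5 and not called. Both promoter windows of Tef in RefSeq, at chr15:81802423-81802672 and chr15:81811164-81811413 on the plus strand of GRCm38.p6, held 1 CACGTG (capitals), the E-box that BMAL1 and its partners read.
Tef start 1: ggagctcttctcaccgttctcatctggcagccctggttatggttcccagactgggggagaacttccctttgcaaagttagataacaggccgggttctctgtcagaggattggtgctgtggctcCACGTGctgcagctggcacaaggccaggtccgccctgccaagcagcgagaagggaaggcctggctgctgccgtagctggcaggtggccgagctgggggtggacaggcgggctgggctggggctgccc
Tef start 2: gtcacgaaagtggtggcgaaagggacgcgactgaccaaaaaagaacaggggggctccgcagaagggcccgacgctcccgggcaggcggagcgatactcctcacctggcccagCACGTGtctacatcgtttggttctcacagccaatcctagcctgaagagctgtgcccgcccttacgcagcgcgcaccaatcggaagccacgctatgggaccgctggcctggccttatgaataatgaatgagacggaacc
The matches began 127 and 138 bases before the start. CACGTG was in 6.02% of the 32851 windows and not in those of Usp2, Per3 or Cry2, a statement about these letters only. Usp2, a deubiquitinase with a daily rhythm, had an interaction of 6.08, and -0.04 with the clock level as a covariate.

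Markers of lymphocytes and genes of MHC class II had negative interactions without exception among those called. Of 12 tested B and plasma cell markers 9 were called (background 9.12%), of 14 T and NK cell markers 4, and of 7 MHC class II genes 6. Igkc encodes the constant part of the kappa light chain. Igkc had 97.8, 140.3, 76.3, 124 and 100.5 CPM in the libraries labelled LXRα-/- HFD and 159, 71.9, 259, 114 and 167 CPM in those labelled LXRα-/- Chow. Igkc had 351, 103, 104, 119.5 and 886 CPM in WT HFD libraries and 10.5, 8.2, 15.1, 12.7 and 7.71 CPM in WT Chow libraries. Igkc was lowest in WT Chow without overlap, and WT HFD replicates 1 and 5 were the highest. The interaction of Igkc was -5.37 ± 0.73 (adjusted p = 9.85e-05), with -0.52 in livers labelled LXRα-/- and 4.85 in WT livers. Jchain, which joins antibodies of plasma cells, had -2.42 and Nkg7, of cytotoxic granules, -3.29. Ighg2c had -5.93, and -3.24 without WT HFD replicate 5.

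H2-Aa, a chain of MHC class II, showed a smaller difference. H2-Aa had 40.0, 42.4, 33.6, 35.9 and 40.1 CPM in the libraries labelled LXRα-/- HFD and 104, 35.7, 60.7, 36.4 and 49.5 CPM in those labelled LXRα-/- Chow. H2-Aa had 72.1, 30.4, 28.9, 27.4 and 72.8 CPM in WT HFD libraries and 17.8, 12.4, 28.7, 21 and 23.6 CPM in WT Chow libraries. WT Chow libraries were the lowest group and overlapped WT HFD by 1 library. The interaction of H2-Aa was -1.74 ± 0.46 (adjusted p = 0.0117). The count of MHC class II genes was 3 without LXRα-/- Chow replicate 1. Summed MHC class II genes were 142.4 to 158.5 CPM in LXRα-/- HFD and 151.1 to 349.1 CPM in LXRα-/- Chow libraries. They were 110.6 to 288.4 CPM in WT HFD and 72.62 to 130.2 CPM in WT Chow libraries, which overlapped. Summed B and plasma cell markers were 170.7 to 242 CPM in LXRα-/- HFD, 175.5 to 442 CPM in LXRα-/- Chow, 168 to 1251 CPM in WT HFD and 52.1 to 118 CPM in WT Chow libraries.

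Few macrophage markers and no neutrophil marker were called. None of 15 Kupffer cell markers was called for the interaction by edgeR, with 2 at an unadjusted p under 0.05 (0 called by DESeq2 and 4 by limma on log2(FPKM + 1)), although 9 fell with diet in WT livers (background 15%). Their median interaction was 0.32, from -0.70 in livers labelled LXRα-/- and -1.0 in WT livers. The summed Kupffer markers were 158.6 to 228 CPM in LXRα-/- HFD, 181 to 359 CPM in LXRα-/- Chow, 201 to 289 CPM in WT HFD and 388.5 to 599 CPM in WT Chow libraries. Cd5l, secreted by Kupffer cells and an LXR target, had 0 to 1.15 CPM over the libraries labelled LXRα-/- and 20.4 to 114 CPM over the WT libraries, a difference of genotype with an interaction of 0.83 (-1.32 to 2.99). The Cd5l interaction was 0.50 to 2.33 when 1 library was left out. Recruited macrophage markers had 2 positive of 14, near the background of 10.2% (Cd207 at 2.36 and Fabp5 at 3.45), neutrophil markers none of 10 (1 at an unadjusted p under 0.05, 0 called by DESeq2 and 1 by limma on log2(FPKM + 1)), chemokines and cytokines 3 negative of 11 and interferon-stimulated genes 2 negative of 12 (background 9.12%).

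**Figure D5:**
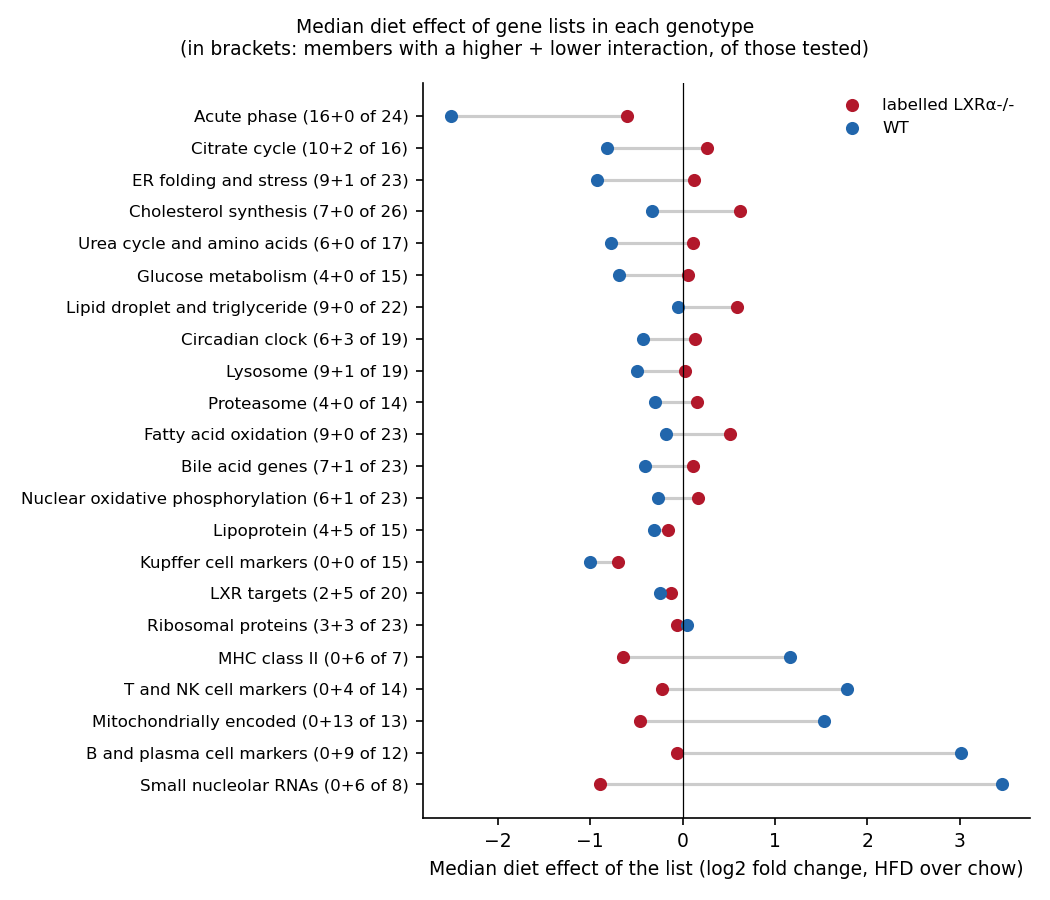
For 22 gene lists, points give the median diet effect (log2 fold change, HFD over chow) in livers labelled LXRα-/- and in WT livers, joined by a line, with the number of members called positive plus negative for the interaction and the number tested beside each name. The WT medians range widely, from -2.51 for acute phase genes to 3.46 for small nucleolar RNAs, while those of livers labelled LXRα-/- stay between -0.90 and 0.62.

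The interaction also sorted by kind of transcript. Of 14402 protein coding genes 1726 were positive (12%) and 1076 negative (7.47%), not far from the background of 10.2% and 9.12%. Of 2320 long non-coding RNAs 35 were positive (1.51%) and 319 negative (13.8%). Of 102 small nucleolar and nuclear RNAs none was positive and 30 were negative (29.4%). Micro-RNA genes had 2 positive (3.28%) and 23 negative (37.7%) of 61. The protocols in the labels describe poly(A) selection, and the small RNAs counted here lack a long poly(A) tail, so their counts come from whatever passed that selection. The U3 RNA Rnu3b2, which guides the first cuts of ribosomal RNA, had -4.44, and 6 of 8 members of the small nucleolar RNA list were negative (background 9.12%). Their summed level was 9.0 to 43.2 CPM in LXRα-/- HFD, 7.35 to 44.7 CPM in LXRα-/- Chow, 3.72 to 7.51 CPM in WT HFD and 0.32 to 0.938 CPM in WT Chow libraries. With protein coding genes put in 5 equal bins of transcript length, negative calls were most frequent in the shortest bin (12.3%, against 5.8% to 7.05% in the others). In 5 bins of level over all genes, the share called was 6.06% in the lowest and 29.6% in the highest.

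Mir8114, a micro-RNA gene, went against its class. Mir8114 had 0.668, 0.798, 0.306, 1.01 and 1.12 CPM in the libraries labelled LXRα-/- HFD and 0.456, 0.397, 0.726, 0.275 and 0.449 CPM in those labelled LXRα-/- Chow. Mir8114 had 1.9, 1.81, 1.58, 0.978 and 1.18 CPM in WT HFD libraries and 15.8, 24.3, 19.7, 29.7 and 27.1 CPM in WT Chow libraries. Each WT Chow library was far above each other library. The interaction was 4.73 ± 0.45 (adjusted p = 7.14e-06), with 0.76 in livers labelled LXRα-/- and -3.97 in WT livers. A poly(A) library does not read the mature micro-RNA well, so the value stands for RNA over its locus. The mature sequence in RefSeq (chr1:153899989-153900009, plus strand, GRCm38.p6) is shown with its seed, bases 2 to 8, in capitals.
mmu-miR-8114: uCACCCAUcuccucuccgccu

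Ssrp1, a subunit of the histone chaperone FACT, had the smallest p of the named genes. Ssrp1 had 4.03, 4.18, 4.4, 5.7 and 4.84 CPM in the libraries labelled LXRα-/- HFD and 6, 4.19, 5.4, 3.6 and 4.56 CPM in those labelled LXRα-/- Chow. Ssrp1 had 5.51, 3.84, 5.3, 5 and 3.21 CPM in WT HFD libraries and 38.5, 38.2, 34, 33.7 and 33.6 CPM in WT Chow libraries. Its WT Chow values were close to each other and above all others. Its interaction was 2.92 ± 0.25 (adjusted p = 4.25e-06), with -0.04 in livers labelled LXRα-/- and -2.96 in WT livers. Acad11, an acyl-CoA dehydrogenase, had 2.98, and Ctnna1, which links cadherins to actin, 3.59. Tmsb10, an actin-binding peptide, and Rpl21, a ribosomal protein, were also among the 12 genes of smallest p, with negative interactions of -2.72 and -2.69. Rpl21 has many processed pseudogenes, so its count is uncertain.

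In the remaining called genes a group other than WT Chow stood farthest from the rest. Oat, which makes glutamate semialdehyde from ornithine, is one of 145 led by LXRα-/- Chow. Oat had 371, 565, 122, 718 and 767 CPM in the libraries labelled LXRα-/- HFD and 93.8, 142, 286, 138 and 126 CPM in those labelled LXRα-/- Chow. Oat had 273, 525, 309, 303 and 417 CPM in WT HFD libraries and 561, 611, 704, 626 and 516 CPM in WT Chow libraries. Apart from replicate 3, the libraries labelled LXRα-/- Chow lay below every WT library, and of those labelled LXRα-/- HFD replicate 3 alone lay in their range. The interaction of Oat was 2.42 ± 0.52 (adjusted p = 0.00291), with 1.69 in livers labelled LXRα-/- and -0.72 in WT livers, neither called. WT HFD led Smim22, a small membrane protein, at -2.58, and Pdzk1ip1, a partner of the scaffold PDZK1, at -1.85. LXRα-/- HFD led Ppp1r15a, which ends the stress-induced halt of translation, at -1.39.

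Papola and Poc1b carry the reverse case, a called diet effect in livers labelled LXRα-/-. Papola encodes a poly(A) polymerase. Papola had 30.7, 30.3, 28.7, 30.4 and 34.1 CPM in the libraries labelled LXRα-/- HFD and 10.4, 9.45, 13.7, 10.5 and 8.56 CPM in those labelled LXRα-/- Chow. Papola had 33.8, 9.9, 28.1, 29.4 and 23.9 CPM in WT HFD libraries and 22.7, 43.1, 35.1, 21.7 and 24.1 CPM in WT Chow libraries. The libraries labelled LXRα-/- Chow were the lowest, with WT HFD replicate 2 in their range. Papola had an interaction of 1.78 ± 0.36 (adjusted p = 0.00191), with 1.55 in livers labelled LXRα-/- and -0.23 in WT livers. Poc1b encodes a centriole protein. Poc1b had 4.84, 1.64, 4.39, 6.17 and 6 CPM in the libraries labelled LXRα-/- HFD and 0.545, 0.905, 1.1, 0.836 and 0.449 CPM in those labelled LXRα-/- Chow. Poc1b had 2.06, 0.72, 1.14, 0.501 and 0.608 CPM in WT HFD libraries and 3.24, 3.26, 3.93, 2.28 and 3.29 CPM in WT Chow libraries. Among libraries labelled LXRα-/- every HFD library lay above every chow library, and among WT libraries every HFD library lay below every chow library. The interaction of Poc1b was 4.25 ± 0.56 (adjusted p = 7.06e-05), with 2.58 in livers labelled LXRα-/- and -1.67 in WT livers. Map3k13, a kinase of the stress pathway to JNK, had an interaction of 1.26 (adjusted p = 0.00957), with 1.66 in livers labelled LXRα-/- and 0.40 in WT livers. The count of 3 genes with a diet effect in livers labelled LXRα-/- moved with the settings. It was 0 under a strict filter, against a fold of 1.5, with either covariate and without LXRα-/- Chow replicate 1, and 1 with the replicate block. It was 66 with DESeq2 and 15 without LXRα-/- HFD replicate 3.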

How the data were processed

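Paired-end poly(A) libraries were sequenced from 20 liver samples, per the labels' protocols. Per the file headers, the authors deposited whole-number counts and FPKM (counts per kilobase and depth) for each gene. Bowtie 0.12.2, HISAT2 2.0, StringTie 1.3.0 and the build mm8 appear in the submitters' processing notes without a role, but the deposited coordinates match GRCm38: of 55385 gene IDs 55144 are in GENCODE M21, with the same start for 99.6%. How reads were counted, by strand or not, is not stated in these sources, so paralogs, pseudogenes and overlapping or antisense genes have uncertain counts.

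Groups came from the sample titles. Counts were tested with edgeR 4.0.16 in R 4.3.3 (filterByExpr, TMM factors, quasi-likelihood F test, 1 mean per group, 16 residual degrees of freedom), two-sided, with Benjamini-Hochberg adjustment over 18905 genes and a threshold of 0.05. "Called" means past that threshold. SEs and 95% intervals were derived from the F statistic. How far counting error and the spread between libraries each limit the precision was not tested. Alternatives used limma 3.58.1 (pseudocounts of 1 and 0.1), DESeq2 1.42.0, other scalings and filters, covariates, the replicate block and leaving out each library. The procedure was tested on simulated data.

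The members and the 48 gene lists were chosen with earlier results of these data known. Named genes are the receptors and LXR targets, the 12 largest positive and 12 largest negative interactions and the 12 smallest p among called genes with a mean FPKM of at least 2, up to 4 members of each list and up to 6 per pattern of diet effects. Other names, among them Poc1b, Map3k13 and genes given as examples of their list, were chosen after their values were seen, and some genes that the rule names are not reported here. Promoter windows of 250 bases before a start were taken from RefSeq on GRCm38.p6.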

Additional observations from a re-analysis of the deposited data

Results flagged for a closer look

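The diet effects of the genotypes were tested against each other for every gene, and 3661 genes differed by that test. Among the genes shown per library, positive differences (log2, diet effect in labelled LXRα-/- minus that in WT) were 8.08 for Saa2, 5.77 for Mt2, 4.73 for Mir8114, 4.35 for Tef, 4.25 for Poc1b, 3.91 for Fga, 2.93 for Hadhb, 2.92 for Ssrp1 and 2.82 for Xbp1. Smaller positive ones were 2.68 for Cyp7a1, 2.61 for Ppara, 2.53 for Sqle, 2.42 for Oat, 2.29 for Slc10a1, 2.11 for Hsd17b7, 1.78 for Papola and 1.27 for Rxra. Negative differences were -5.62 for Cyp2b9, -5.37 for Igkc, -4.58 for Npas2, -3.63 for Gdf15, -3.32 for Angptl8, -2.95 for mt-Nd3, -2.58 for Pltp, -1.77 for Lpl and -1.74 for H2-Aa.

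Single libraries lay far from the other 4 of their group in 19 of 120 groups examined. The cutoff's chance rate of about 1 in 20 assumes normal values and independent groups. Unlogged CPM need not be normal and the groups reuse the same 20 libraries, so the count cannot be set against that rate. LXRα-/- HFD replicate 3 did so for Hsd17b7 (6.62 CPM), Npas2 (2.57 CPM), the share of small nucleolar RNAs (0.0118%) and the clock level (-1.28). LXRα-/- HFD replicates 2 and 4 did so for Gdf15 (2.998 CPM) and Saa2 (32.2 CPM). LXRα-/- Chow replicate 2 stood apart for Npas2 (2.83 CPM) and the clock level (-1.38), replicate 3 for Cyp2b9 (103 CPM) and Oat (286 CPM), and replicate 5 for Saa2 (129 CPM) and Mt2 (21.6 CPM). In WT HFD, replicate 3 did so for Angptl8 (484 CPM) and replicate 5 for Ppara (10.3 CPM) and Mt2 (8.46 CPM). In WT Chow, replicate 1 did so for Lpl (11.2 CPM), replicate 2 for Fga (30960 CPM) and the clock level (-4.75), and replicate 4 for Mt2 (1775 CPM). What set these libraries apart was not tested.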

How the results depend on the processing

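The interaction count stayed within 1.5 times its value of 3661 under other scalings, filters and tools (2788 with protein coding genes only to 5115 with voom and sample quality weights). Without any 1 library it was 3088 to 4160, lowest without LXRα-/- HFD replicate 5 and highest without LXRα-/- HFD replicate 3. The diet count in labelled LXRα-/- without 1 library was 0 to 15, and that in WT 4694 to 5807. Other settings moved the interaction count further, here with the diet counts in labelled LXRα-/- and in WT: 1751, 0 and 2479 against a fold of 1.5, 76, 0 and 1462 with the mitochondrial share as a covariate, and 733, 0 and 1947 with the clock level as a covariate. The diet count in labelled LXRα-/-, 3 genes, was also 0 under the strict filter, 66 with DESeq2, 8 and 7 with limma on log2(FPKM + 1) and log2(FPKM + 0.1). Replicate numbers did not pair libraries (0 of 30 same-number pairs correlated above 0.1), and a replicate block gave 3315 interaction calls, 1 diet call in labelled LXRα-/- and 5181 in WT. Values of called genes that changed sign were Cyp2b9 on the square root of CPM (0.59), Mup-ps17 with the mitochondrial share (-3.70) and, with the clock level, Cyp7a1 (-1.15), Usp2 (-0.038), Fads2 (-0.45) and Hmox1 (-0.052). Values that were not called also crossed 0, among them Abcg5 (-0.55 to 0.63) and Cd5l (-0.83 to 3.90). The cause was not tested. Of 183 named genes called, 155 kept their call in all 20 fits without 1 library. Many were named for a small p or a large value, so this share does not stand for all 3661. In the lowest of 5 bins of gene level the median SE was 1.69 log2 units, against 0.30 in the highest.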
